A study of Homo sapiens with 6 samples.

Results

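The genes described here are 10 regulators of the G1 phase of the cell cycle: the D-type cyclin genes CCND1, CCND2 and CCND3, the E-type cyclin genes CCNE1 and CCNE2, the kinase genes CDK4 and CDK6, and the CDK inhibitor genes CDKN1A, CDKN1B and CDKN2B. They were chosen by name, with earlier results of these data known, and each name matched 1 row of a deposited table of 57281 genes. Poly(A) RNA was sequenced from HaCaT, an established human keratinocyte line that became immortal in culture without a transforming agent. The cytokine TGF-β1 (transforming growth factor β1; 10 ng/ml, 24 h) was present in every culture, to mimic the closing of a wound by epithelium. The TGF-β1 group has 3 biological replicates, and the silymarin group has another 3 that also received silymarin, an extract of milk thistle seed, at 31.25 µg/ml. HaCaT is a single long-cultured line. No culture without TGF-β1 was analysed here, so an effect of silymarin alone was not measured.

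D-type cyclins bind CDK4 or CDK6 in early G1, E-type cyclins bind CDK2 later in G1, and both kinds of kinase phosphorylate the retinoblastoma protein, which then releases E2F transcription factors. Inhibitors of the INK4 class, such as the p15 protein of CDKN2B, bind CDK4 and CDK6 and keep D-type cyclins away. Inhibitors of the CIP/KIP class, such as p21 of CDKN1A and p27 of CDKN1B, bind cyclin-CDK complexes. In keratinocytes TGF-β1 is known to arrest cells in G1, with induction of CDKN2B and CDKN1A and repression of MYC.

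With silymarin, 4 of the 10 genes rose and 2 fell, and 4 did not pass the test. CCNE1 and CCND1 showed the largest rises, 1.87-fold and 1.52-fold, whereas CDKN2B fell to 0.748 times its level with TGF-β1 alone. CDKN1A and CCND2 rose slightly, CDKN1B fell to 0.849, and CDK4, CDK6, CCND3 and CCNE2 were not called. A gene was called at an adjusted p under 0.05 in limma, fitted to log2(value + 1) over 17296 genes and adjusted by Benjamini-Hochberg. In that fit 34.2% of all tested genes were called, 16.0% higher and 18.2% lower, so a call is common in this comparison. All 10 genes passed the filter on low values (10 or more normalized counts in 3 or more of the libraries). Changes of at least 1.5-fold were rarer, at 4.20% of tested genes higher and 7.01% lower. CCND1 and CCNE1 were 2 such genes, and no member fell that far. CCND1, at 1.52-fold, was close to this cut, and its 95% interval spans the cut. The groups did not overlap for 6 of the 10 genes, compared with 47.1% of all tested genes. The edgeR quasi-likelihood test on the reads of 5 libraries called 5 of the 10, all but CDKN1A of the 6 above, where 26.6% of its tested genes were called.

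**Figure D1:**
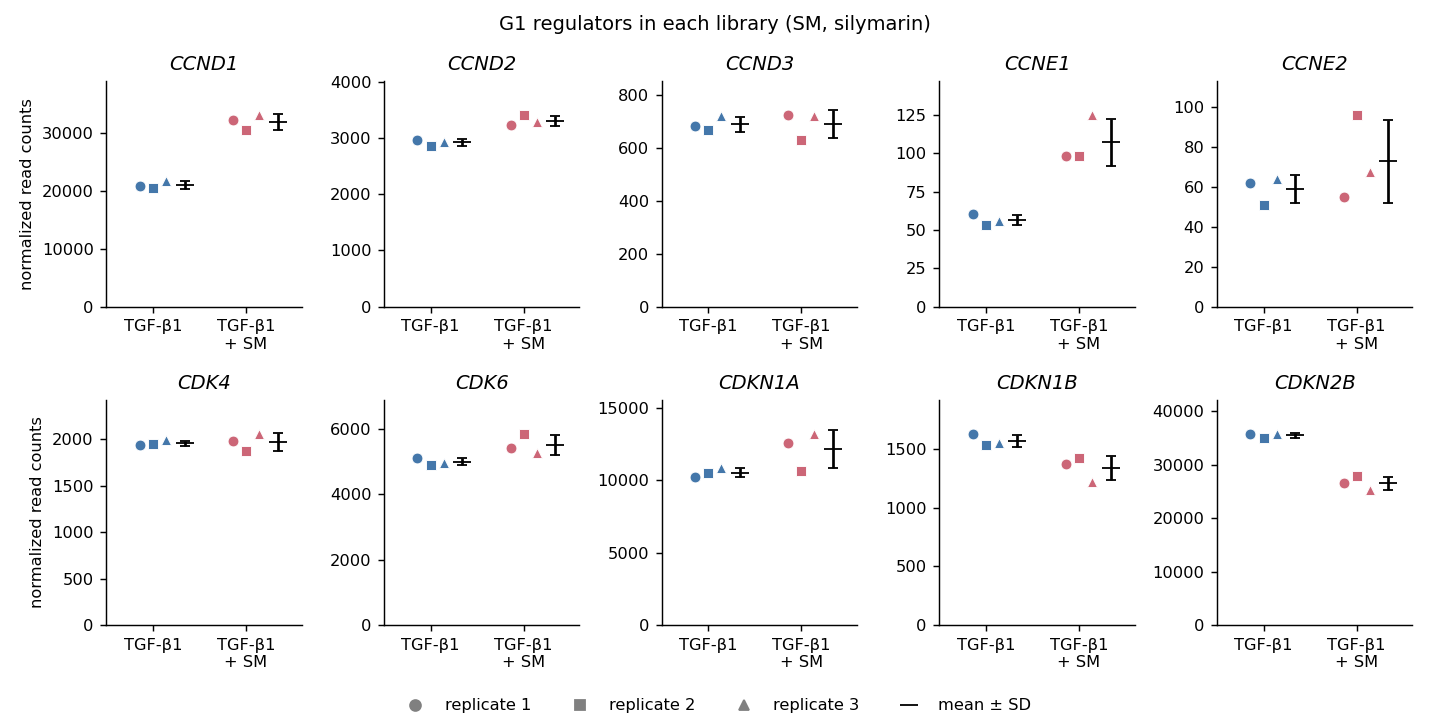
Normalized read counts (y axis, from 0) of each of the 10 genes in the 3 TGF-β1 libraries and the 3 libraries with silymarin (SM), with the mean ± SD beside them. The groups are well apart for CCND1, CCNE1 and CDKN2B, and silymarin replicate 2 (square) lies away from the other silymarin libraries for CCNE2 and CDKN1A.

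Recovered read totals were 20240542 to 30279391 in the 5 libraries used as reads. Silymarin replicate 2 was the shallowest library and stood apart on the second principal component (25.9, against -13.3 in each of the other silymarin libraries). Its deviation from the silymarin mean ran with the GC content of genes (Spearman -0.56 across 16828 genes). For CDK6, CCNE2 and CDKN1A, changes and ratios are given with and without it. List counts, list medians and percentages of called genes are given with it. Without it, 3474 of 17078 tested genes were called higher and 3709 lower, against 2764 and 3148 of 17296 with it. The keratinocyte markers KRT5, KRT14, TP63, DSP and ITGB4 were abundant, while KRT17, which has near-identical copies, was listed at 0. The summed keratinocyte markers were 263794 to 269993 normalized counts with TGF-β1 and 149522 to 165588 with silymarin. KRT5, KRT14, DSP and ITGB4 were each called lower, with log2 fold changes of -1.17, -1.14, -0.65 and -0.41 (limma adjusted p of 0.000418 or less). TP63, in the same list, did not pass the test (20346 ± 448 against 19031 ± 1705, limma adjusted p = 0.216). Of 6 fibroblast markers only COL1A1 was tested, and their sum was 3325 to 3509 and 1714 to 2055. THY1 and DCN were listed at 0 in every library and PDGFRA was at most 1.77. The sums of melanocyte markers (77.8 to 83.9 against 70.1 to 91.9), immune markers (16.2 to 22.1 against 25.5 to 38.1) and endothelial markers (92.4 to 96.4 against 55.8 to 93.5) were low. TYR and SOX10 were at 0, and PTPRC was at most 2.65. The part of these differences in the results was not tested. In bulk RNA, fewer cells of a kind and less RNA per cell cannot be told apart.

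Promoter sequences from RefSeq (GRCh38.p14) were at hand for 7 of the 10 genes, in 10 windows from 250 bases before to 50 after a transcription start. CCND1, CCND2 and CCNE2 were not matched. The 250 bases before the start are shown for CCNE1, the gene with the largest fold change, and for CDKN1A and CDKN2B, whose TGF-β response has been mapped to GC-rich SP1 boxes near the start. Each runs 5′ to 3′ on the strand of its gene, and capitals mark the SP1 box GGGCGG or its complement on the other strand. The windows are chr19:29811741-29811990 (plus strand) for CCNE1, chr6:36678464-36678713 (plus strand) for CDKN1A and chr9:22009306-22009555 (minus strand) for CDKN2B.
CCNE1: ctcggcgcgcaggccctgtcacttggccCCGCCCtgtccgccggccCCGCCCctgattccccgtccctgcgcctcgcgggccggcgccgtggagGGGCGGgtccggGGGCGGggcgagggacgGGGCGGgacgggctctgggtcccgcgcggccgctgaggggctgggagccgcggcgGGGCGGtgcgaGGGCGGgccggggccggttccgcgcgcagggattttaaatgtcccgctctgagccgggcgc
CDKN1A: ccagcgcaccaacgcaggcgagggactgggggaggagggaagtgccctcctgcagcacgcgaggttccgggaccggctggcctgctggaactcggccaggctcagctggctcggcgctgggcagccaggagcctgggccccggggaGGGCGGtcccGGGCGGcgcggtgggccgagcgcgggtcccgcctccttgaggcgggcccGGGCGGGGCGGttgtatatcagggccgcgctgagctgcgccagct
CDKN2B: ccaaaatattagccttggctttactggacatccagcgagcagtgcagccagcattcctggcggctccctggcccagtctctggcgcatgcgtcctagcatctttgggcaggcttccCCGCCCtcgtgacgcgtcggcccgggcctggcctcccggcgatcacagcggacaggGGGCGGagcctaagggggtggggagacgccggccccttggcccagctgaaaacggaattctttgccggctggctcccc
The box occurs 7 times before the RefSeq start of CCNE1, 4 times before that of CDKN1A, where the last 2 overlap, and 2 times before that of CDKN2B. These RefSeq starts lie inside the gene spans given below, which come from GENCODE. The stretch shown lies wholly inside its span for CDKN1A, and partly inside for CCNE1 and CDKN2B. The boxes of CDKN1A and some of those of CCNE1 thus lie inside the spans and not upstream of them. Of all 35116 RefSeq windows of this length, 45% hold at least 1. The SMAD box GTCT, present in 84% of windows, matched 2 times in CDKN2B and 0 times in CCNE1 and CDKN1A. It also matched in windows of CCND3, CDK4, CDK6 and CDKN1B. E2F words (TTTCCCGC, TTTCGCGC, TTTGCCGC and TTTGGCGC, both strands), present in 3.31% of windows, were not found in these 10 windows. A match is a string of letters and not a measured binding site. Among the 3 genes shown, SP1 boxes precede the RefSeq start of a gene that rose by 1.87-fold, one that rose slightly and one that fell. The box was also found in windows of CDKN1B, which fell, and of CCND3, CDK4 and CDK6, which were not called.

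Among the D-type cyclins, CCND1 rose clearly, CCND2 slightly, and CCND3 showed no detectable change. CCND1 (chromosome 11, 69641087 to 69654474, GRCh38, GENCODE 29) had 20744, 20477 and 21712 normalized counts in TGF-β1 replicates 1 to 3, and 32121, 30368 and 32953 in the silymarin replicates. Every silymarin library was above every TGF-β1 library. The means were 20978 ± 649.7 and 31814 ± 1319.7 (SD, n = 3 per group), a log2 fold change of 0.60 (SE 0.049, limma adjusted p = 6.7e-07). The range over 18 other settings was 0.57 to 0.63, with the call kept in each. LTO1, on the opposite strand, shares 497 exonic bases with CCND1 and had 1301 to 1406 normalized counts with TGF-β1 and 1440 to 1710 with silymarin. No source used here gives the strand setting of the read counting, and without it the reads of such a pair cannot be told apart.

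CCND2 (chromosome 12, 4273772 to 4305350) encodes the cyclin D2 partner of the same kinases. Its values were 2975, 2856 and 2941 with TGF-β1 and 3239, 3406 and 3281 with silymarin. The groups did not overlap, but the shift was small. The log2 fold change was 0.18 (SE 0.048, limma adjusted p = 0.0109, 3 libraries per group). The call was lost without TGF-β1 replicate 2 (0.16, adjusted p = 0.0678) and with DESeq2 on the reads of 5 libraries (adjusted p = 0.0657).

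CCND3 (chromosome 6, 41934933 to 42050357) had 679.8, 665 and 718 normalized counts with TGF-β1 and 721, 629.5 and 718 with silymarin. The groups overlapped, and silymarin replicate 2 was the lowest of the 6 libraries. Its log2 fold change was 0.00 with a 95% interval of -0.15 to 0.16 (limma adjusted p = 0.987), so a change of either sign within that interval is compatible with the data.

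The shares of the D-type cyclins stood apart between the groups in these 6 libraries, but 3 libraries a group are too few for a test of their ratios to pass. On a scale of normalized counts per kilobase of exon, set to the same sum in every library (per-length units below), CCND1 made up 89.2% ± 0.204 of the D-type cyclin level with TGF-β1 and 91.9% ± 0.342 with silymarin (SD, n = 3). The share of CCND2 went from 8.39% ± 0.22 to 6.46% ± 0.406 and that of CCND3 from 2.43% ± 0.025 to 1.66% ± 0.072. The summed level of the family was 598 to 644 per-length units with TGF-β1 and 873 to 927 with silymarin. Within libraries, the log2 ratio of CCND2 to CCND1 differed by -0.42 between the groups and that of CCND3 to CCND1 by -0.60. For both ratios every silymarin library was below every TGF-β1 library. Both have CCND1 as denominator, so they largely restate its rise and are not results separate from it. The exact two-sided permutation test gave p = 0.1 for each, the smallest that 3 libraries against 3 allow, and 0.15 after Benjamini-Hochberg adjustment over the 6 ratios compared.

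**Figure D2:**
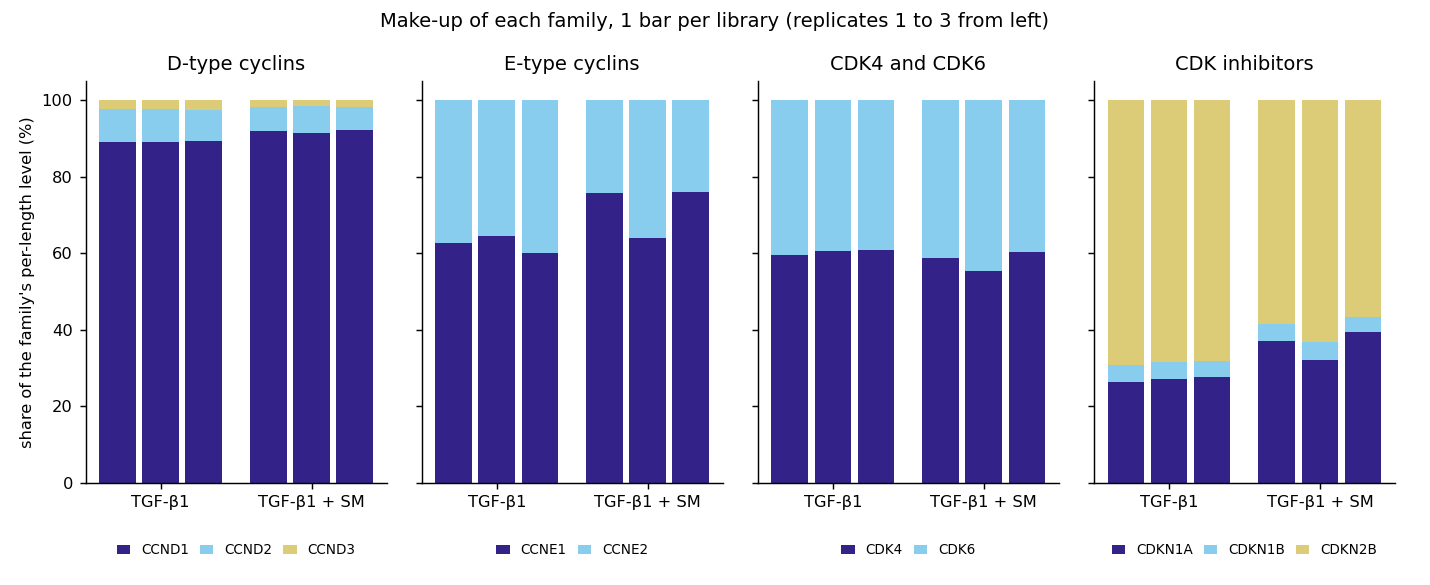
Share (y axis, percent) of each gene in the summed per-length level of its family, 1 bar per library. CCND1 makes up 89.2% of the D-type cyclins with TGF-β1 and 91.9% with silymarin (SM), and the share of CDKN1A among the 3 inhibitors goes from 27.0% to 36.2%.

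The kinases that D-type cyclins activate changed little. CDK4 (chromosome 12, 57747727 to 57756013) had 1939.5, 1954 and 1990.4 normalized counts with TGF-β1 and 1988, 1872 and 2059.8 with silymarin. The groups overlapped, with a log2 fold change of 0.01 and a 95% interval of -0.11 to 0.12 (limma adjusted p = 0.93). TSPAN31 runs on the opposite strand and shares 1369 exonic bases with CDK4, whose exons cover 3168 bases. It had 1404 to 1471 normalized counts with TGF-β1 and 1500.1 to 1539 with silymarin, so the value of CDK4 depends on how reads of the overlap were assigned.

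CDK6 (chromosome 7, 92604921 to 92836594) had 5118, 4909 and 4973 normalized counts with TGF-β1 and 5411, 5849 and 5260.3 with silymarin. All silymarin libraries were above all TGF-β1 libraries, as for CCND1, CCND2 and CCNE1. Such a separation upward was found for 23.1% of tested genes, and downward for 24.1%. The log2 fold change was 0.14 (SE 0.051) and just missed the threshold (limma adjusted p = 0.0515). It passed without silymarin replicate 2, where the change was 0.09 (adjusted p = 0.0311), without silymarin replicate 3 (0.17, adjusted p = 0.0302), and under 4 other settings, whereas the range of adjusted p over all settings was 0.00126 to 0.231. Per-length levels of the pair were 78.3 ± 1.96 for CDK4 and 51.6 ± 1.03 for CDK6 with TGF-β1, and 78.3 ± 3.17 and 56.5 ± 3.63 with silymarin (SD, n = 3). The log2 ratio of CDK6 to CDK4 differed by 0.13 between the groups, with overlap between them (exact permutation p = 0.2, adjusted 0.2). Without silymarin replicate 2 the difference was 0.05, and without silymarin replicate 3 it was 0.19.

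The E-type cyclins were the least abundant of the 10 genes, and the pair showed different values. CCNE1 (chromosome 19, 29811898 to 29824308) had 60.1, 53.5 and 55.6 normalized counts with TGF-β1 and 98.5, 98.1 and 125 with silymarin. All silymarin libraries were above all TGF-β1 libraries. The means were 56.4 ± 3.39 and 107 ± 15.2 (SD, n = 3), a log2 fold change of 0.91 (SE 0.14, limma adjusted p = 0.000241), and 5.75% of tested genes had a larger absolute change. The call was kept in each of 18 other settings, with values of 0.79 to 0.96.

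CCNE2 (chromosome 8, 94879770 to 94896678) had 61.9, 50.7 and 63.7 normalized counts with TGF-β1 and 54.7, 95.6 and 67.5 with silymarin. The groups overlapped, and the highest value came from silymarin replicate 2. The log2 fold change was 0.27 with a 95% interval of -0.15 to 0.68 (limma adjusted p = 0.31). Leaving out 1 library moved it between 0.05 without silymarin replicate 2 (adjusted p = 0.841) and 0.45 without silymarin replicate 1 (adjusted p = 0.0954), with 0.17 without TGF-β1 replicate 2 (adjusted p = 0.621), and it passed in none of these fits. INTS8, on the opposite strand, shares 1629 exonic bases with CCNE2 and had 1029.9 to 1067 normalized counts with TGF-β1 and 1081 to 1237 with silymarin, far above CCNE2 itself. The log2 ratio of CCNE2 to CCNE1 was -0.08 to 0.20 with TGF-β1 and -0.85, -0.04 and -0.88 in silymarin replicates 1 to 3 (exact permutation p = 0.2, adjusted 0.2). Replicate 2 lay within the TGF-β1 range, and the difference between the groups was -0.64 with it and -0.92 without it. The summed E-type level was 4.09 to 4.72 per-length units with TGF-β1 and 6.39 to 8.04 with silymarin.

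Among the CDK inhibitors, CDKN2B and CDKN1B fell and CDKN1A rose. CDKN2B (chromosome 9, 22002903 to 22009363) had 35772, 35008 and 35696 normalized counts with TGF-β1 and 26525, 27810.3 and 25312 with silymarin. All silymarin libraries were below all TGF-β1 libraries. The means were 35492 ± 421 and 26549 ± 1249 (SD, n = 3), a log2 fold change of -0.42 (SE 0.048, limma adjusted p = 1.7e-05), and the call was kept in each of 18 other settings (-0.45 to -0.39). The antisense gene CDKN2B-AS1 spans CDKN2B, shares 0 exonic bases with it, and had 217 to 261 normalized counts with TGF-β1 and 244 to 292 with silymarin.

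CDKN1B (chromosome 12, 12715058 to 12722371) had 1633, 1538 and 1555 normalized counts with TGF-β1 and 1373, 1423 and 1223 with silymarin. The groups did not overlap. The log2 fold change was -0.24 (SE 0.064, limma adjusted p = 0.0114), and the call was lost without TGF-β1 replicate 1 (-0.21, adjusted p = 0.0624). As p27 is known to be set largely by degradation of the protein, the RNA gives only part of its regulation.

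CDKN1A (chromosome 6, 36676460 to 36687339) had 10241, 10472 and 10851 normalized counts with TGF-β1 and 12578, 10647 and 13185 with silymarin. Silymarin replicates 1 and 3 were above all TGF-β1 libraries, while replicate 2 lay within their range. The log2 fold change was 0.20 (SE 0.068, limma adjusted p = 0.0354). Without silymarin replicate 2 it was 0.29 (adjusted p = 5.9e-07). The call was lost when any of the other libraries was left out: the adjusted p was 0.119, 0.104 and 0.0653 without TGF-β1 replicates 1, 2 and 3, and 0.122 and 0.13 without silymarin replicates 1 and 3. The edgeR quasi-likelihood test on the reads of 5 libraries gave an adjusted p of 0.0533, and DESeq2 on the same reads gave 0.048.

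Among the 3 inhibitors, CDKN2B had a smaller share and CDKN1A a larger one with silymarin. The share of CDKN2B in their summed per-length level was 68.6% ± 0.499 with TGF-β1 and 59.5% ± 3.3 with silymarin, and that of CDKN1A was 27.0% ± 0.64 and 36.2% ± 3.64 (SD, n = 3). The log2 ratio of CDKN2B to CDKN1A differed by -0.62 between the groups and that of CDKN1B to CDKN1A by -0.44. In both ratios all silymarin libraries were below all TGF-β1 libraries (exact permutation p = 0.1, the smallest possible, adjusted 0.15). Silymarin replicate 2 was the nearest to the TGF-β1 libraries in both, and without it the differences were -0.75 and -0.57.

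**Figure D3:**
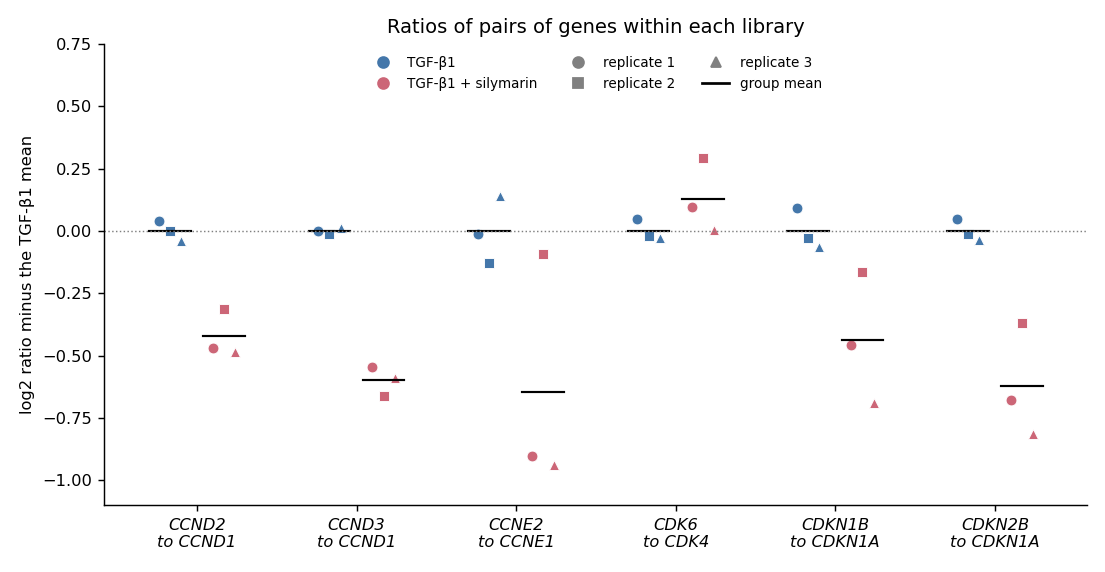
Within-library log2 ratio of pairs of genes, minus the TGF-β1 mean of that ratio (y axis), for the 3 libraries of each group, with group means as bars. The CCND3 to CCND1 ratio is lower by 0.60 on the log2 scale with silymarin, with tight replicates, while silymarin replicate 2 (square) sits near the TGF-β1 values for CCNE2 to CCNE1.

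On the per-length scale the order of the 10 genes with TGF-β1 was CDKN2B (1106 ± 20.6), CCND1 (549 ± 23.1), CDKN1A (436 ± 17.8), CDK4 (78.3), CDKN1B (70.8), CCND2 (51.65), CDK6 (51.56), CCND3 (15.0), CCNE1 (2.80) and CCNE2 (1.69), in per-length units. CCND2 and CDK6 could not be told apart, and the other neighbours did not overlap across the 3 TGF-β1 libraries. The levels of CCND1, CDK4 and CCNE2 also depend on how reads of the exonic overlaps with LTO1, TSPAN31 and INTS8 were assigned. With silymarin CCND1 stood at 829 ± 27.9 and CDKN2B at 823 ± 45.1 (SD, n = 3), and their ranges of 799 to 854 and 781 to 871 overlapped. CCND1 was above CDKN2B in silymarin replicates 1 and 3 and below it in replicate 2. CDK6 (53.7 to 60.6), CCND2 (56.6 to 60.5) and CDKN1B (54.5 to 64.4) also overlapped with silymarin.

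**Figure D4:**
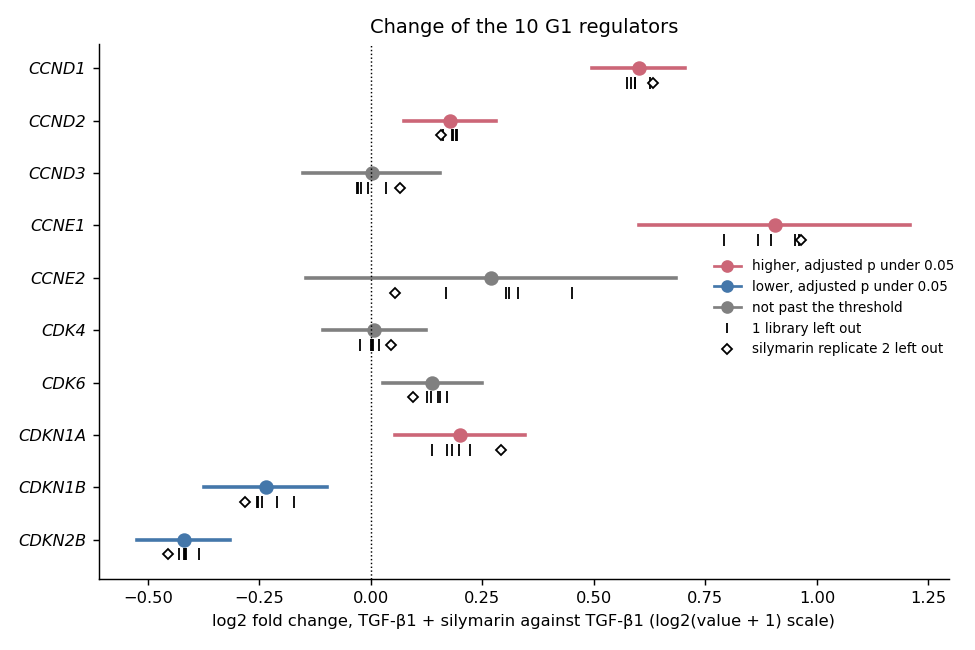
Log2 fold change of each gene (x axis, silymarin with TGF-β1 against TGF-β1) with its 95% interval, coloured by the limma call, and below it the value with each library left out. The intervals of CCND1, CCNE1 and CDKN2B lie far from 0, and the value of CDKN1A without silymarin replicate 2 is the highest of its 6 leave-one-out values.

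The genes around these regulators were counted in 6 lists beside them, against 16.0% of all tested genes higher and 18.2% lower, and a median log2 fold change over all tested genes of 0.00. Like the members, these lists were chosen with earlier results of these data known. Of 13 pocket protein and E2F genes, 2 rose, E2F2 fell and 10 did not pass, with a median of 0.06. E2F1, an activator of S phase genes and itself an E2F target, had 53.8 ± 6.25 normalized counts with TGF-β1 and 93.7 ± 9.43 with silymarin (SD, n = 3), a log2 fold change of 0.79 (limma adjusted p = 0.000895). E2F7, a repressor of the same targets, rose by 0.54. For RB1, the retinoblastoma gene, the value was 0.07 (adjusted p = 0.519).

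Of 24 tested E2F target genes of S phase entry, 7 rose, 3 fell and 14 did not pass, with a median of 0.16. The licensing factor gene CDC6 rose by 0.87, GINS2 of the replicative helicase by 0.84 and the helicase gene MCM2 by 0.63. RRM1, of ribonucleotide reductase, fell by 0.44. The list thus holds members of both signs.

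Of 18 tested genes for other cyclins, CDKs and their phosphatases or kinases, 9 fell, 2 rose (CDK7 and CCNG1) and 7 did not pass, with a median of -0.19. CCNB2 fell by 0.87, CDK1 by 0.74, CDC25C by 0.72 and CCNA2 by 0.69 on the log2 scale. CDC25A, a phosphatase gene of G1 named here after its values were seen, fell by 0.54 (adjusted p = 0.0148). CDK2, the partner of E-type cyclins, had 968 ± 1.66 normalized counts with TGF-β1 and 799 ± 70.02 with silymarin (SD, n = 3), a log2 fold change of -0.28 (limma adjusted p = 0.00623). The proliferation marker MKI67 fell by 1.54. CCND1 and CCNE1 were thus higher, and CDK2, CCNA2, CCNB2 and CDK1 lower, in the same libraries.

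Of 4 tested further CDK inhibitor genes, only CDKN2A was called, as lower (log2 fold change -0.33, limma adjusted p = 0.00182). The other 3 did not pass, and the list median was -0.25. CDKN3 just missed the threshold with a larger change of -0.53 (limma adjusted p = 0.0527). All its silymarin libraries were below all TGF-β1 libraries. The values were -0.17 for CDKN2C and 0.18 for CDKN2D. CDKN2A lies beside CDKN2B and encodes p16 and, in another frame, p14ARF, which gene counts do not separate. Of 16 tested genes for ubiquitin ligase parts, 13 did not pass. FBXW7, which recognises cyclin E, fell by 0.37 and FZR1 by 0.21, while SKP1 rose by 0.18. For SKP2, which recognises p27, the value was 0.01 (adjusted p = 0.887).

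Of 22 transcription factor genes known to act on G1 regulators, 11 rose, 4 fell and 7 did not pass, with a median of 0.13. MYC, which TGF-β1 is known to repress, had 1255 ± 100.4 normalized counts with TGF-β1 and 2661 ± 134 with silymarin (SD, n = 3), and its log2 fold change was 1.09 (limma adjusted p = 3.6e-08). Its values were 1208, 1187 and 1370.4 with TGF-β1 and 2642, 2537 and 2803 with silymarin, so the groups were far apart. ATF3 rose by 1.13 and SMAD3, which carries the TGF-β signal to the nucleus, by 0.72, whereas FOS fell by 1.12.

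**Figure D5:**
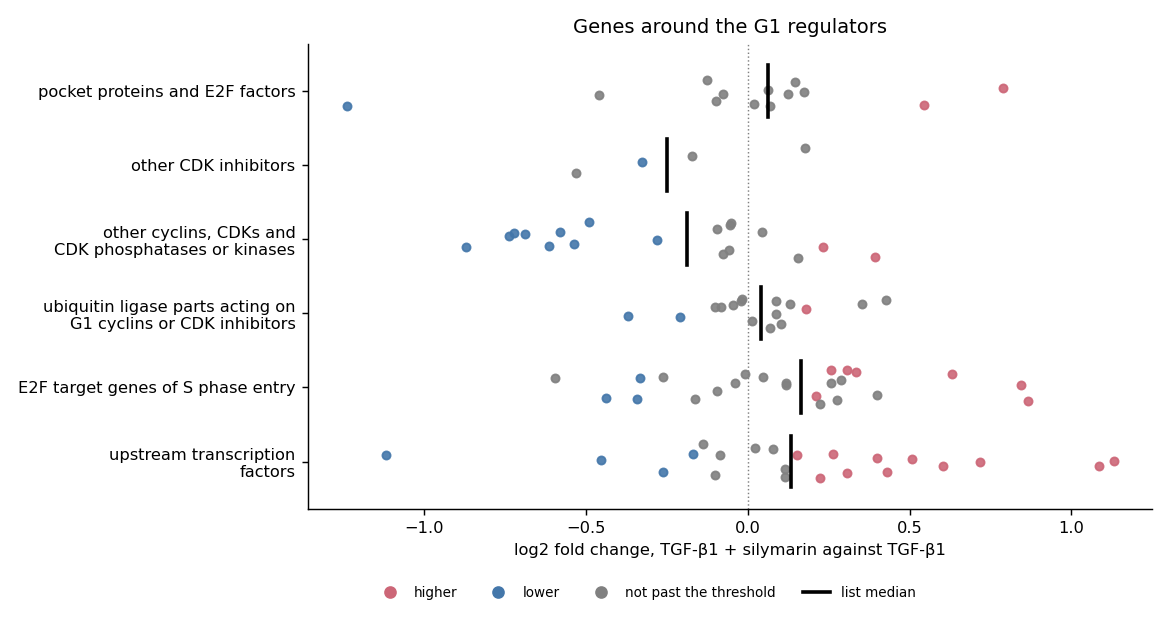
Log2 fold change (x axis, silymarin with TGF-β1 against TGF-β1) of every tested gene in the 6 lists, 1 point per gene, coloured by the limma call, with the list median as a bar. The list of other cyclins and CDKs has a median of -0.19, and the list of upstream transcription factors holds 11 genes called higher.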

How the data were processed

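The signal values that the authors deposited, for 57281 genes in 1 table, are normalized read counts. In each column they are whole multiples of 1 step, the form of counts divided by a size factor (100% of values whole within 1e-06 in each library). Per the submitters' processing notes, TopHat2 2.1.1, cutadapt 1.15, bcl2fastq 2.18.12, DESeq2 and featureCounts of Subread 1.5.2 were used. The library kit was a stranded one per the labels' protocols, while strand setting, annotation and genome build are not given in the sources used here. Size factors hide a change in total RNA per cell.

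In R 4.3.3, limma 3.58.1 with a trended prior was fitted to log2(value + 1), with no covariate besides the group. P-values rest on the spread within groups of 3 replicates. Folds on this scale understate changes of low genes. TGF-β1 replicate 3 was not used as reads because its step, 1.01, is too close to 1 for the check applied to recovered reads. The reads of the other 5 libraries went to edgeR 4.0.16, which called 4524 of 17024 genes (26.6%) and 5 of the 10 members, and to DESeq2 1.42.0. The procedure was tested on simulated data. Lengths, GC content and positions come from GENCODE 29 (GRCh38), which may differ from the authors' annotation. The members and lists were chosen with earlier results of these data known. Named genes were the 10 members, in each list the up to 4 called genes of largest change and a mean of 50 or more normalized counts, and CDK2, RB1, E2F1, SKP2, CDKN2A, MYC and MKI67. A further gene and list are not reported here. Genes named because a list had few calls were chosen after their values were seen, as were genes that overlap a member. Alternatives covered scaling, filters, pseudocounts, threshold, tool, the replicate block and each library left out. A correction for GC content and length, and limma on the 5 libraries of the count models, were added after seeing the data.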

Additional observations from a re-analysis of the deposited data

How the results depend on the processing

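CCND1, CCNE1 and CDKN2B kept their direction and call under all 18 distinct alternatives. At an adjusted p under 0.01, 1667 genes were higher and 2194 lower, 2 members were higher and 1 lower; CCND2 (0.18), CDKN1A (0.20) and CDKN1B (-0.24) were no longer called. With 1 library left out, the members called higher ranged from 2 to 5 and those called lower from 1 to 2. Of all tested genes (17024 to 17117 in these fits), 1959 to 3474 were called higher and 2319 to 3709 lower. The log2 fold changes then ranged from 0.16 to 0.19 for CCND2, from -0.031 to 0.066 for CCND3, from -0.024 to 0.045 for CDK4, from 0.054 to 0.45 for CCNE2, from 0.094 to 0.17 for CDK6, from 0.14 to 0.29 for CDKN1A and from -0.28 to -0.17 for CDKN1B, so the sign of CCND3 and CDK4 is not fixed. The fewer libraries in these fits are one difference from the full fit; the cause of the lost calls was not tested. CDK6 passed with upper-quartile scaling (0.15), library-size scaling (0.16), a filter of at least 50 normalized counts (0.14, fewer genes tested) and the GC and length correction (0.13). On the reads of 5 libraries edgeR (0.23) did not call CDKN1A, and neither did limma on the same libraries (0.22, the same fit as without TGF-β1 replicate 3); DESeq2 did not call CCND2 (0.18) and called 1605 genes higher and 2048 lower. The median log2 fold change of all tested genes stayed between -0.0048 and 0.0242 over the alternatives. With the replicate number as a block, 2630 genes were higher and 3048 lower, and 4 members were higher and 2 lower, with no change of a member's call. Same-numbered libraries did not deviate together (correlations of -0.04, 0.04 and 0.02 across 17296 genes). TGF-β1 replicates 1 and 2 both correlated best with silymarin replicate 2, and TGF-β1 replicate 3 with silymarin replicate 1. All correlations were small (-0.0864 to 0.0784), so the numbers were not taken to pair the samples. Depth limits CCNE1 and CCNE2, at 50 to 125 normalized counts per library.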

Other observations

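Across the 10 genes, the departure of silymarin replicate 2 from the mean of silymarin replicates 1 and 3 fell with GC content of the longest transcript (Spearman -0.915, Pearson -0.905 over 10 genes that share the same libraries). Its deviation from the silymarin mean also fell with GC content across 16828 tested genes (Spearman -0.56), so the trend is not particular to these 10. CCNE2, with 36.9% GC, was higher in replicate 2 by 0.64 on the log2 scale and CDK6, with 39.5%, by 0.13. At the other end, CDKN1A (58.05%) departed by -0.27, CCND3 (56.2%) by -0.19 and CCNE1 (52.9%) by -0.17. The 4 members whose silymarin group overlaps the TGF-β1 group are CCNE2, CDKN1A, CCND3 and CDK4, and the last had 53.6% GC and a departure of -0.11. For CCNE2 and CDK4 the overlap does not rest on replicate 2 alone. Silymarin replicate 1 lay within the TGF-β1 range for CCNE2 (54.7, range 50.7 to 63.7) and for CDK4 (1988.1, range 1939.5 to 1990.4). With the GC and length correction the log2 fold changes were 0.22 for CCNE2 (limma adjusted p = 0.322), 0.23 for CDKN1A (adjusted p = 5.7e-05) and 0.03 for CCND3 (adjusted p = 0.681). These 3 stayed on the same side of the threshold as without it. CDK6 did not: it passed with the correction (0.13, limma adjusted p = 0.00126) and missed without it (adjusted p = 0.0515).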
